A study of Arabidopsis thaliana with 251 samples.

Results

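The 1000 widest H3K4me3 regions of Arabidopsis thaliana leaf in these data were chosen by peak width. The members were taken from the H3K4me3 peak list of fwa replicate 1 of data set SET14: the list held 16461 unique regions, 15761 of them overlapped a peak of replicate 2, and the 1000 widest of these were kept. Of the 1000, 983 lay on the 5 nuclear chromosomes and 17 on the plastid chromosome. They ran from 1708 to 29247 bp (median 1957.5 bp) against a median of 852 bp in the 14761 other regions. At the edge of the choice, the regions of rank 1000 and 1001 were both 1708 bp wide and the region of rank 1002 was 1707 bp wide. These widths made the choice and are given as a description.

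The study tested proteins fused to a zinc finger array (ZF) that binds the promoter of FWA. The lines of all leaf lists carried the fwa epiallele, in which the FWA promoter has lost DNA methylation and flowering is late, in the Columbia-0 ecotype. Tissue was leaf of plants aged 4 to 5 weeks, and the JMJ14-ZF and ELF7-ZF plants were T2 transgenic lines chosen for early flowering, so that they differed from fwa in flowering as well as in the transgene. H3K4me3 peak lists came from fwa, JMJ14-ZF (an H3K4 demethylase) and ELF7-ZF (a PAF1 complex subunit) in SET1 and SET2, 1 list per line and data set, and from fwa and the EYFP-ZF line (a fluorescent protein fusion used as a control) in SET14, 2 lists each. In fwa leaf, 36 further lists covered H3K9ac (n = 7), H3K14ac (n = 4), H3K27ac (n = 6), H4K16ac (n = 5), H3K36me2 (n = 2), H3K36me3 (n = 2), H3K27me3 (n = 4) and Pol II (n = 6), the last with an antibody to the form phosphorylated on Ser5 of the repeat domain according to the methods. Floral tissue gave 2 lists of FLAG-tagged ELF7, from elf7-3 mutant plants that express ELF7-FLAG from the ELF7 promoter, and 1 FLAG list of TRB1-ZF that gives ZF binding sites. Some H3K9ac, H3K27ac and H4K16ac lists of SET3-6 are labelled fwa1 or fwa2, and the labels do not say how these differ. Each was counted as a separate fwa list, so several lists of a mark share a data set and may not be independent. Nothing in the labels says that replicates came from separate plants, so the p-values measure the spread between these lists, which may be technical. The lists hold peak positions, fold enrichment and q values but no read counts, and the depth behind a width is unknown.

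H3K4me3 is the methylation mark of the first nucleosomes after the start of transcribed genes. It is laid down as Pol II begins transcription, it accompanies histone acetylation, and H3K36 methylation follows it further into the gene. In whole leaf, a mark carried by more cells and a mark that is stronger in each cell cannot be told apart.

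The leaf label was checked against marker genes. RBCS1A, CAB1 (LHCB1.3), CA1 and RCA carried an H3K4me3 peak in all 10 lists, and CAB2 (LHCB1.1) in 7. Of 8 floral and seed genes, 0 carried a peak in the 7 lists of SET1 and SET14, but the 3 lists of SET2 each had a peak over AG, SEP1, AP3 and PI, the floral organ identity genes, and none over CAB2. The same 4 floral genes carried peaks in both H3K27ac lists of SET3-6 replicate 2 and in the H3K36me3 list of replicate 2, 3 of them did so in the H3K36me2 list of replicate 2, and the 4 H3K14ac lists each held peaks over 3 or 4 genes of the floral and seed list. Single peaks lay over PI in H3K27ac of SET15 replicate 2 and over SEP1 in Pol II of SET8-9 replicate 2. These lists are labelled leaf. The part of such differences in the results was not tested, and the main values of the marks they belong to are also given without them, except for H3K14ac, where every list holds such peaks. H3K27me3, a mark of silent developmental genes, covered all 8 floral and seed genes in the lists of SET1 and SET2 but 3 and 1 of them in those of SET14, where 4 of 5 leaf markers carried it.

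The sequences before some of the starts are shown first, because most members lay at a gene start. Sequences are from the RefSeq copy of the TAIR10 genome (TAIR10.1), and each promoter holds the 200 bases before the annotated start in the 5′ to 3′ sense of its gene. Capitals mark matches on either strand to any of 4 short motifs. The G-box, bound by light and clock factors, is CACGTG. The I-box of light-regulated promoters is GATAAG. The TATA motif was searched as TATAAA. The site II element was searched as TGGGCC. RCA (Rubisco activase), GLDP1 (the P protein of glycine decarboxylase) and UBQ10 (a polyubiquitin) had the widest nuclear regions around 1 start outside the rRNA genes, and LHY and PRR9 (both circadian clock repressors) were the clock genes among the members. The last pair of sequences are the whole stretches between divergent starts in a member, PSBTN (a photosystem II protein) with RBL and AT1G16870 with ACR11.
RCA upstream, chr2:16573693-16573892, strand minus: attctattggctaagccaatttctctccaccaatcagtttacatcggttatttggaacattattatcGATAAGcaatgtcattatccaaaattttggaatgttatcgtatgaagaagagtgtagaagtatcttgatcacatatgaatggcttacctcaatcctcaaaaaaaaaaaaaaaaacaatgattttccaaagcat
GLDP1 upstream, chr4:15931423-15931622, strand minus: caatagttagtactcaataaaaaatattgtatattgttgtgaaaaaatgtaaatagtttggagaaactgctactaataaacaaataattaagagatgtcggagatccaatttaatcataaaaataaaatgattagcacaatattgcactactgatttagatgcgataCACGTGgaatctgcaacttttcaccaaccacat
UBQ10 upstream, chr4:2717777-2717976, strand plus: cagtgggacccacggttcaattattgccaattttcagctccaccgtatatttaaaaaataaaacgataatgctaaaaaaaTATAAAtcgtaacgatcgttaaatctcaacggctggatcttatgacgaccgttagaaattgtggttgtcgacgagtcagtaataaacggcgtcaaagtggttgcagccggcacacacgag
LHY upstream, chr1:37872-38071, strand minus: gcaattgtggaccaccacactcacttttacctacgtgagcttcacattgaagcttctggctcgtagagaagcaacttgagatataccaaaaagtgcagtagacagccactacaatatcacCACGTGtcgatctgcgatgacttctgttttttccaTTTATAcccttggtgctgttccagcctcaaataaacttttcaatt
PRR9 upstream, chr2:19232407-19232606, strand plus: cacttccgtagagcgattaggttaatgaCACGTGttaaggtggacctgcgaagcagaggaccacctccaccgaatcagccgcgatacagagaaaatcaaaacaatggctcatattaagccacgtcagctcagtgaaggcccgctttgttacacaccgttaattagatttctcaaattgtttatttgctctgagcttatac
PSBTN to RBL, chr3:7377227-7377390, strand plus: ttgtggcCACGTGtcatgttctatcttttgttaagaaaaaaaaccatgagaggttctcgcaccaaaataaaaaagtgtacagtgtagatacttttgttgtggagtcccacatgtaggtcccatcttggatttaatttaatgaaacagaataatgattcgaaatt
AT1G16870 to ACR11, chr1:5773323-5773511, strand plus: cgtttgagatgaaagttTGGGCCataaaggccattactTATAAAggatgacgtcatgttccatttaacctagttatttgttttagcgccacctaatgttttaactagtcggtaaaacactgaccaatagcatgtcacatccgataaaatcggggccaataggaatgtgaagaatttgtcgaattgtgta

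LHY, PRR9 and GLDP1 each held a G-box in this stretch, as did the gap between PSBTN and RBL. RCA held an I-box, UBQ10 and LHY a TATA motif, and the gap between AT1G16870 and ACR11 a TATA motif and a site II element. Over the 250 bases before the start, an I-box stood before 18.1% of the 930 protein-coding genes that start in a member, 11.7% of the 8604 that start in another region and 12.3% of all 27444 genes. The G-box stood before 11.9%, 8.16% and 6.49% of the same sets, and the TATA motif before 37.6%, 42.8% and 47.3%. Among the genes that start in the next 1000 widest regions the shares were 14.5% for the I-box, 11.1% for the G-box and 30.3% for the TATA motif. The shares moved with the arrangement of the genes. The site II element stood before 13.1% of single starts in a member (n = 337) and 24.2% of those in another region (n = 7246), but before 35.9% of divergent starts in a member (n = 454) and 39.3% of those in another region (n = 896). The telobox (AAACCCTA) stood before 1.19% of single and 7.71% of divergent starts in members, against 3.52% and 18.3% elsewhere. The repeat GAGAGAGA stood before 10.3% of member genes, 5.18% of genes in other regions and 12.8% of the 959 genes that start in the next 1000 widest regions, and the evening element (AAAATATCT) before 1.94% and 2.22% of the first 2 of these sets. Motifs could overlap one another, and a match describes letters only.

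The members fell into 3 main arrangements of gene starts. Of the 983 nuclear members, 337 (34.3%) held 1 start of a protein-coding gene, 289 (29.4%) held 2 or more, and 319 (32.5%) held none but ended within 500 bp of one, while 38 (3.87%) fit none of these. Regions with 2 or more starts made up 4.58% of the 14756 other nuclear regions and 34.3% of the next 1000. Of the 289, 220 had divergent starts, 40 convergent and 29 on the same strand. In the 221 divergent pairs, the starts were 127 bp apart in the median (quartiles 66.0 and 197.0 bp), against 112 bp in the other regions. Single-start regions made up 49.1% of the other regions. Of the nuclear members 13 overlapped no protein-coding gene, against 610 of the 14756 other nuclear regions and 14 of the next 1000.

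The single-start members lay mostly after the gene start. The choice by width sets how far such a region extends, so the extents in the list that chose them are a description. Their median end was 1826 bp after the start (quartiles 1626 and 2092 bp), against 776 bp in the other single-start regions, and their median beginning was 95 bp before it (quartiles 37.0 and 198.0 bp) against 69 bp (35.0 and 106.0 bp). They covered a median of 78.8% of the gene's length (quartiles 53.7% and 94.5%) against 31.2%, and 70 of the 337 (20.8%) ran past the end of the gene, against 2.54% elsewhere. The genes were no longer than the others: the median length was 2452 bp against 2506 bp. Among the 337, width and gene length had a Spearman correlation of 0.133, a description over regions of a single list. Genes that start in members had a median of 3 exons and those in other regions a median of 6, and 80.7% of the single-start genes had an intron against 89.7%. Over all nuclear members, 51.8% of bases were coding against 43.0% in the other regions, and 7.76% against 8.33% lay outside genes. GC content of the whole region was 40.5% in the median member against 39.4%.

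**Figure D1:**
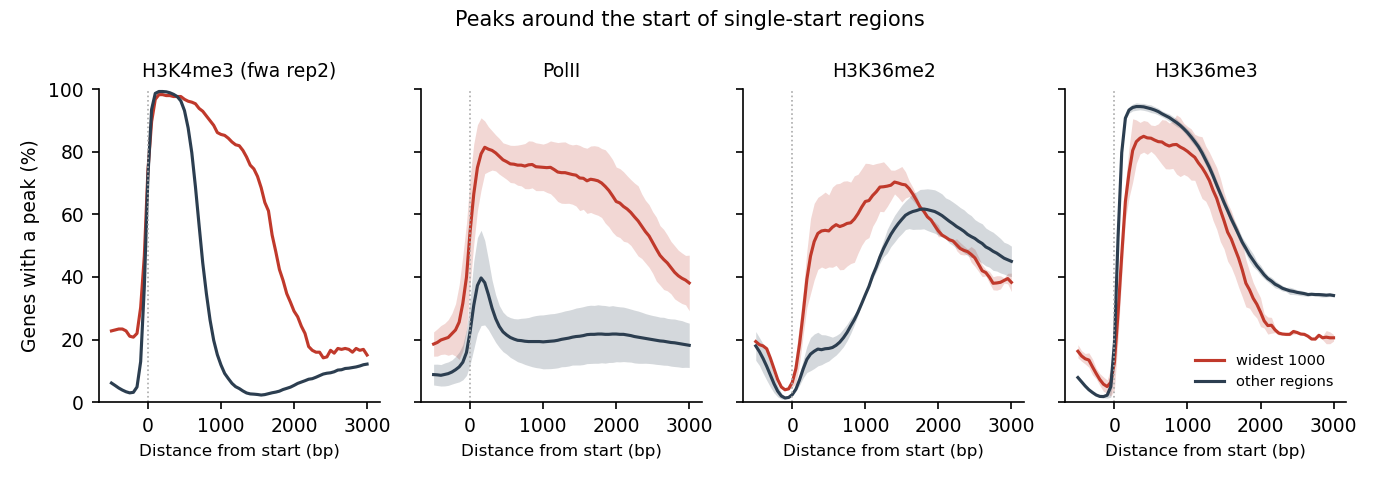
Share of genes (%) with a peak at each distance (bp) from the annotated start, for the 337 single-start members (red) and the 7246 other single-start regions (dark). H3K4me3 is the SET14 fwa replicate 2 list alone, other panels give the mean over fwa lists with a band of 1 SD (Pol II n = 6, H3K36me2 n = 2, H3K36me3 n = 2). At 1500 bp, Pol II peaks cover 71.6% of the member genes and 21.1% of the other genes.

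The replicate 2 list, whose presence but not width entered the choice, also had peaks far into these genes. A peak of that list covered 98.2% of the 337 genes 150 bp after the start and 72.1% of them at 1500 bp, where 2.5% of the genes in other single-start regions had one. Before the start, at -500 bp, it covered 22.8% of the member genes against 6.16%. In the fwa lists of SET1 and SET2 the share at 1500 bp was 40.8% against 1.63%, and in the SET1 list alone 47.5% against 1.57%. Acetylation extended with it. At 1500 bp the share was 47.2% against 4.58% for H3K9ac, 43.7% against 5.81% for H3K27ac (44.5% against 5.56% without the 3 lists with a peak over a floral gene), 38.5% against 6.5% for H3K14ac and 35.6% against 2.92% for H4K16ac. H3K36me2 and H3K36me3 parted. At 500 bp, H3K36me2 covered 54.7% of member genes against 17.2%, and H3K36me3 covered 84.3% against 93.7%. In the replicate 1 lists alone these were 62.9% against 20% and 87.2% against 94.6%.

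Of the 8 marks, Pol II had the largest mean difference in covered bases between members and other regions. On average over the 6 fwa lists, Pol II peaks covered 65.3% ± 7.82 (SD) of the bases of a member and 29.4% ± 7.03 of those of another region. Per list, the members' coverage was 69.1% and 62.0% in SET10-11, 74.6% and 72.0% in SET14, and 54.4% and 60.0% in SET8-9, and the other regions' was 34.2%, 23.8%, 33.7%, 33.6%, 17.5% and 33.3% in the same order. The groups did not overlap, and the members were higher in 6 of 6 lists by 36 percentage points ± 4.97 (37.8 ± 2.19 in 5 of 5 without SET8-9 replicate 2, which has a peak over SEP1). An exact two-sided sign-flip permutation test gave p = 0.0312, the smallest that 6 lists allow, and 0.2 after Benjamini-Hochberg adjustment over the 8 marks, which does not pass 0.05. With 2 to 7 lists a mark, none of the 8 tests could pass it after adjustment.

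Peaks of Pol II lay over 739 of the 983 nuclear members (75.2%) in all 6 lists, over 24.9% of the other regions and over 52.8% of the next 1000. Without SET8-9 replicate 2 the shares were 75.8% (745 members) and 25.1% of the other regions. An overlap from 1 bp is met more often by a wider region, and width chose the members, so this and the other shares counted by overlap are a description. In none of the lists did a Pol II peak lie over 19 nuclear members (1.93%), against 28.5% of the other regions and 9.51% of the next 1000. The arrangement of starts went with this level. Pol II covered 76.1% ± 7.84 of a single-start member, 77.3% of a member with the start just outside and 35.9% ± 9.45 of a member with divergent starts. Within each arrangement the members stayed above other regions, at 26.5% ± 7.78 for single starts and 13.5% ± 5.48 for divergent starts, in 6 of 6 lists each (exact p = 0.0312 for each, not adjusted). Without SET8-9 replicate 2 the single-start values were 77.5% against 25.6% and the divergent values 36% against 12.4%. Of the 220 divergent members, 117 (53.2%) had Pol II in all 6 lists, and of the 337 single-start members 283 (84.0%) did. Among the 19 members with no Pol II peak, 8 had divergent starts, among them the pair SWI3C and OGG1 (a chromatin remodelling subunit and a DNA glycosylase), whose region H3K36me3 covered at 86.4%.

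**Figure D2:**
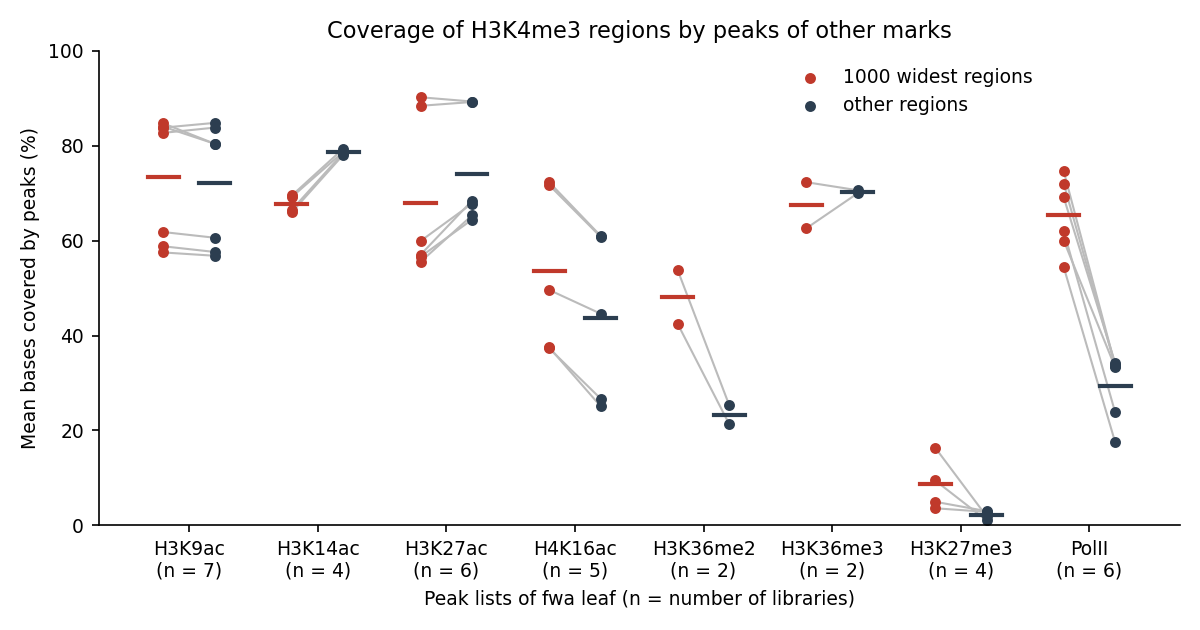
Mean percent of bases covered by peaks in each fwa leaf list, for the 1000 widest H3K4me3 regions (red) and the 14761 other regions (dark). Each dot is 1 list, grey lines join the values of a list, and bars give the mean. Pol II and H4K16ac are higher in the members in every list, and H3K14ac is lower in every list.

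The 4 acetylation marks differed in direction by the share of bases covered, but not by other measures. At the midpoint of the region all 4 were lower in members (H3K9ac -14.0, H3K14ac -26.1, H3K27ac -23.3 and H4K16ac -12.8 points), and by any overlap all 4 were higher (4.07, 0.394, 0.21 and 14.8 points). By bases covered the values were as follows. H4K16ac covered 53.7% ± 17.5 of a member and 43.6% ± 17.5 of another region (5 lists), higher in 5 of 5 by 10 ± 2.86 points (exact permutation p = 0.0625, adjusted p = 0.2). H3K14ac went the other way, with 67.8% ± 1.83 against 78.7% ± 0.572 (4 lists), lower in 4 of 4 by 10.9 points, written as a difference of -10.9 ± 1.37 (exact p = 0.125, adjusted p = 0.2). H3K27ac covered 68.0% ± 16.6 against 74.1% ± 11.9 (6 lists, higher in 1, difference -6.11 ± 4.98, exact p = 0.0938, adjusted p = 0.2). Without the 2 lists of SET3-6 replicate 2 the H3K27ac difference was -3.89 ± 4.6 (n = 4, exact p = 0.375), and also without SET15 replicate 2 it was -4.93 ± 5.03 (n = 3, exact p = 0.5). H3K9ac covered 73.3% ± 13.1 against 72.1% ± 13 (7 lists, higher in 5, difference 1.27 ± 2.07, exact p = 0.172, adjusted p = 0.229). Within single starts H3K27ac covered 65.6% of a member against 75.9%, and within divergent starts 74.9% against 79.1%. It was higher in members in 0 of 6 lists in each arrangement (exact p = 0.0312 for each, not adjusted). H3K9ac covered 70.9% against 72.8% with single starts (higher in 2 of 7 lists) and 74.2% against 74.1% with divergent starts. With the start just outside it was 75.6% against 71.9%. The lists fell into levels by data set: the H3K9ac coverage of members was 57.5% to 61.8% in SET3-6 and 82.7% to 84.7% in SET7 and SET15, and the difference was positive in SET3-6 and SET15 and below 0 in both lists of SET7. The methods name the same catalogue number for the anti-H3K14ac and anti-H3K27ac antibodies, and what this means for the lists cannot be told from the files.

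Nearly all members carried some acetylation. Counted as any overlap from 1 bp, 97.6% of members met an H3K9ac peak, 97.5% an H3K14ac peak, 94.6% an H3K27ac peak and 93.7% an H4K16ac peak, averaged over lists, against 93.5%, 97.2%, 94.4% and 78.9% of other regions. All 4 acetylations were present in every list over 769 of the 983 nuclear members (78.2%), and H3K36me3 and Pol II joined them in every list over 544 (55.3%). The corresponding shares of other regions were 48.2% and 14.2%. Without the lists with peaks over floral genes, H3K14ac apart, the members' counts were 807 (82.1%) and 618 (62.9%), against 50.1% and 15.8%.

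H3K36me2 and H3K36me3, the marks of elongation, differed. H3K36me2 covered 53.7% and 42.4% of a member in its 2 lists and 25.3% and 21.3% of another region, a mean difference of 24.7 ± 5.11 points in 2 of 2 lists (exact p = 0.5, the smallest that 2 lists allow). H3K36me3 covered 72.3% and 62.6% of a member and 70.6% and 70% of another region, with opposite signs in the 2 lists (difference -2.87 ± 6.43, exact p = 1.0). The second list of each mark is one of those with peaks over floral genes, and without it the differences were 28.3 and 1.68 points. Single-start members had 55.0% H3K36me2 and 64% H3K36me3, against 14.5% and 80.7% of other single-start regions. Divergent members had 18% and 85.7%, against 12.7% and 87.6%. In each of these arrangements H3K36me3 was higher in members in 0 of 2 lists (exact p = 0.5 for each). In the replicate 1 lists alone single-start members had 60.8% and 69.5%, against 16.9% and 81.7%. Divergent members there had 22.4% and 88.4%, against 15.9% and 89.7%. With the start just outside, H3K36me3 was 59% against 61.4%, and 63% against 60.6% in replicate 1. The mark H3K27me3 covered 8.61% ± 5.78 of a member against 2.2% ± 0.899 (4 lists, higher in 4, exact p = 0.125, adjusted p = 0.2), with 16.4% and 9.47% in the SET14 lists and 3.6% and 4.97% in those of SET1 and SET2. On the nuclear chromosomes alone it was higher in 3 of 4 lists (difference 4.97 ± 6.35, exact p = 0.375), and in the SET1 list it was 2.15% against 2.8%. The SET14 lists of this mark are short, with 2424 and 1470 peaks. By any overlap from 1 bp, peaks of H3K27me3 lay over 15 nuclear members (1.53%) in all 4 lists. The shares of the other regions and of the next 1000 were 0.197% and 1.1%. The 15 included UBQ10, RAV1 and BBX14 (transcription factors), KCS6 and KCS10 (wax and cuticle synthases), SUC2 (a phloem sucrose carrier) and ESM1. They also included chr3:14192958-14205139 and chr2:2158-7038, which lay over rRNA genes.

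**Figure D3:**
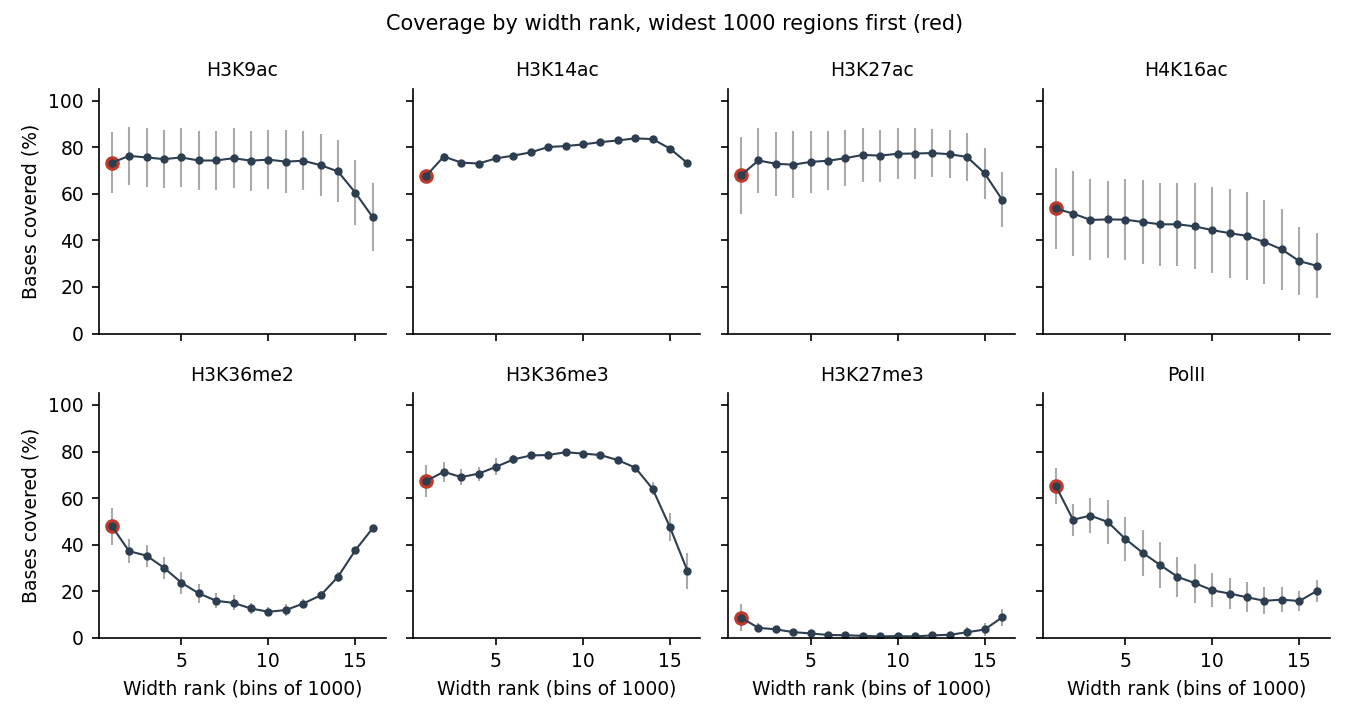
Percent of bases covered (mean ± SD over fwa leaf lists) in 16 bins of regions ordered by H3K4me3 width, 1000 regions a bin except the last, with the widest bin in red. Pol II falls from 65.3% in the widest bin, H3K36me2 is high at both ends of the order, and H3K9ac varies little over the first bins.

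The values changed along the order of width without a step after the first 1000 in H3K9ac. Pol II covered 50.7% of the second bin of 1000 regions, and H3K9ac covered 76.3% of it, more than of the members. Peaks of FLAG-tagged ELF7 in floral tissue overlapped 875 and 765 of the 1000 members in the 2 lists (87.5% and 76.5%), against 56.4% and 37.8% of other regions and 80.4% and 64.7% of the next 1000. The tissue differs from leaf. Of the members, 142 (14.2%) overlapped one of the 6091 ZF binding sites, taken as peaks of at least 4-fold enrichment in the FLAG list of TRB1-ZF from floral tissue, against 11% of the other regions. By bases covered the order was the other way, with 3.55% of a member against 5.83%.

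Photosynthesis genes were frequent in the members. Of all 16186 protein-coding genes whose body overlapped a region, 1418 (8.76%) overlapped a member, and 8 of 11 genes of the photosynthesis list did (RBCS1A, RBCS1B and RBCS3B, small subunits of Rubisco, RCA, CAB1, CAB2 and LHB1B2 of the light-harvesting antenna, and CA1, a carbonic anhydrase). The other 3, RBCS2B, CAB3 and LHB1B1, ranked 1141, 1011 and 1544. Of the light list 3 of 13 genes overlapped a member, the blue light receptors PHOT1 and PHOT2 and the transcription factor PIF5 (PIL6). From the clock list 2 of 10 did (LHY, PRR9), from the polyubiquitin and actin list 2 of 6 (UBQ10, UBQ11), from the auxin response factors 1 of 11 (ARF2) and from the ethylene list 1 of 7 (EBF1). None of 14 genes of H3K4 methylation and demethylation and none of 11 of RNA silencing did. FWA itself overlapped a region of 984 bp at rank 5465, outside the members. Of 301 words found in the annotated products of at least 20 genes over a region, 170 had a share over a member at or below the 8.76% of all genes. The highest share was that of photosystem, with 23 of 52 genes (44.2%), and phototropic-responsive followed with 8 of 23 (34.8%). No list or word was tested, since lists were chosen with earlier results known.

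The 20 widest nuclear regions held enzymes of photosynthesis and photorespiration, other genes, and stretches with rRNA genes or no gene. RCA (AT2G39730) had a region of 4258 bp at chr2:16569446-16573703, and GLDP1 (AT4G33010) one of 4085 bp at chr4:15927369-15931453. UBQ10 (AT4G05320) had 4040 bp at chr4:2716624-2720663. CRD1, an enzyme of chlorophyll synthesis, shared 4143 bp with SIP2;1 and PIP5K4 at chr3:21076278-21080420. CA1 had 3890 bp, GUN5 (a Mg-chelatase subunit) 3774 bp, CA2 3692 bp, LHCA1 with CXIP1 3623 bp, GOX1 (glycolate oxidase) 3516 bp, MS2 (a methionine synthase) 3374 bp and NIA2 (nitrate reductase) 3345 bp. ACD6, a membrane protein of defence, had 3853 bp. AT1G67900 (4358 bp) and AT5G66560 (3482 bp), both of the NPH3 family of phototropism proteins by annotation, were among the 20 widest nuclear regions.

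Pol II peaks lay over RCA, GLDP1, UBQ10, CA1, ACD6, GOX1 and NIA2 in all 6 lists, with mean coverage of 79.1%, 83.3%, 93.5%, 98.4%, 100%, 91.3% and 99.8%. The coverage by H3K36me3 ranged widely over the same genes, with 54.2%, 74.5%, 55.8%, 2.38%, 0.0%, 85% and 0.0%. CRD1 (62.4% Pol II, 67.4% H3K36me3) and GUN5 (69.4% and 67.2%) held both marks. By contrast AT3G24460 (3409 bp) met a Pol II peak in 0 of 6 lists and an H3K9ac peak in 0 of 7. Its H3K4me3 was also absent outside SET14, at 0 bp in the 6 lists of SET1 and SET2. In SET14 it measured 1473 bp in fwa replicate 2 and 3006 and 2046 bp in EYFP-ZF.

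Some of the widest regions were not over ordinary genes and were weakly enriched. Of the 983 nuclear members, 11 had a listed fold enrichment under 2 (fold over the background of the peak caller), against a median of 8.03 in the other nuclear members. All 11 were in the 4 lists of SET14, and 8 of them were in none of the 6 lists of SET1 and SET2. The widest nuclear region, chr3:14192958-14205139 (12182 bp), and chr2:2158-7038 (4881 bp) lay over rRNA genes, and 5 of the 11 overlapped no protein-coding gene. SUC2 was also among them. The 17 plastid members had folds of 1.56 to 1.85, and all were in the 4 lists of SET14.

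The members also had larger summed widths in lists that did not choose them, with a gap between data sets. Median member width was 1810 bp in SET14 fwa replicate 2, 1900 and 1877.5 bp in the EYFP-ZF lists, 1391 to 1462 bp in the 3 lists of SET1 and 1321 to 1380.5 bp in the 3 lists of SET2, against medians of 765, 831, 809, 585 to 619 and 655 to 670 bp in other regions. The ratio of these medians was 2.02 to 2.38 in those 9 lists. A wider region can gather more peaks and width chose the members, so the ratio is a description. By the mean share of bases covered, members had 90.9% to 93.9% in the other SET14 lists, against 86.7% to 90.7% of other regions. In SET1 they had 66.1% to 69.7% against 64.3% to 69.0%, and in SET2 60.2% to 63.0% against 71.5% to 73.5%. Of the 983 nuclear members, 905 had a peak in all 10 lists, as did 12721 of the 14756 other nuclear regions. Members overlapped the 1000 widest regions of the other SET14 lists in 800 to 807 cases, those of SET1 in 474 to 503 and those of SET2 in 335 to 354. The 3 lists of SET2 also lacked a peak over more members, 60 to 79 against 21 to 34 in SET1 and 0 in SET14.

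Divergent members were mostly a single peak in SET14 and mostly several in the other data sets. A member was split into 2 or more peaks in 10.8% to 15.5% of cases in the other SET14 lists and 39.1% to 41.3% in the 6 lists of SET1 and SET2. Other regions, which are narrower, were split in 0.833% to 1.2% and 3.97% to 4.61% of cases in the same lists, so their share also rose outside SET14. Of the 220 divergent members, 191 (86.8%) were split in fwa SET1 and 207 (94.1%) in fwa SET2, against 58 (26.4%) in SET14 fwa replicate 2 and 27 and 26 in the EYFP-ZF lists. Single-start members were split in 24.6% and 24.0% of cases in fwa SET1 and SET2 and in 11.9% in SET14 fwa replicate 2.

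**Figure D4:**
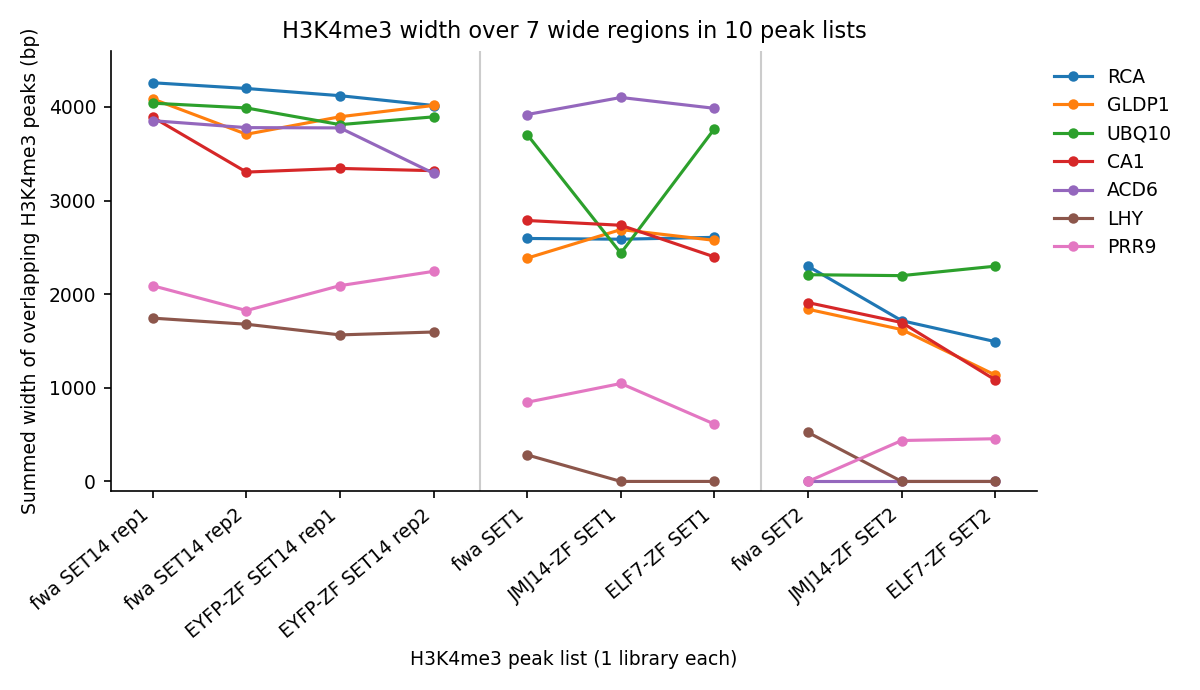
Summed width (bp) of H3K4me3 peaks over 7 wide regions in the 10 lists, 1 list a point, with vertical lines between SET14, SET1 and SET2. RCA, GLDP1, UBQ10 and CA1 are in every list, ACD6 is at 0 in the 3 lists of SET2, and LHY is at 0 in the 4 lists of JMJ14-ZF and ELF7-ZF.

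Single regions showed the gap between data sets. RCA measured 4258 and 4197 bp in fwa of SET14, 4120 and 4015 bp in EYFP-ZF, 2595, 2587 and 2607 bp in fwa, JMJ14-ZF and ELF7-ZF of SET1 and 2298, 1717 and 1493 bp in the same lines of SET2. The lists of SET14 did not overlap the others. ACD6 measured 3853, 3779, 3776 and 3291 bp in SET14 and 3919, 4101 and 3985 bp in SET1, and had no peak in the 3 lists of SET2. Here SET2 stood apart from both others, and SET2 also had the floral gene peaks. UBQ11 measured 1569 to 1912 bp in the 10 lists. In the log2 scale of width plus 100 bp, the mean of the fwa lists of SET1 and SET2 was compared with the mean of SET14 (fwa replicate 2 and the EYFP-ZF lists). The median difference was -0.38 over nuclear members and -0.27 over other regions. Of the 983 nuclear members, 60 (6.1%) were more than 4-fold narrower in fwa of SET1 and SET2, against 2.68% of other regions. The data set cannot be told apart from its plants and its library preparation. CGA1 (a GATA factor of chloroplast development), GBSS1 (starch synthesis), FRO6 (chloroplast iron reduction) and CAB2 were among the 60.

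Clock genes were part of this gap. LHY measured 1744, 1679, 1565 and 1596 bp in the SET14 lists, 283 and 523 bp in fwa of SET1 and SET2 and 0 in the 4 lists of JMJ14-ZF and ELF7-ZF. PRR9 measured 2090, 1825, 2091 and 2244 bp in SET14, 846, 1046 and 612 bp in fwa, JMJ14-ZF and ELF7-ZF of SET1 and 0, 437 and 456 bp in SET2. Every list of SET14 was above every list of SET1 and SET2 for both genes. Pol II peaks over LHY were present in 1 of 6 lists and over PRR9 in 2, and H3K36me3 covered 97.7% and 74.1% of the regions.

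The width of members was then compared between each fusion and fwa, in 1 limma fit of log2(width + 100 bp) over all 15761 regions and 9 lists, with the list that chose the members left out. In JMJ14-ZF 0 of the 1000 members passed an adjusted p of 0.05, where 11 of all 15761 regions did (0.0698%). In ELF7-ZF also 0 passed, where 8 did (0.0508%). With the data set as a replicate block the ELF7-ZF count was 1, a plastid region at position 8339 to 12879 that measured 1242 and 334 bp in fwa and 181 and 0 bp in ELF7-ZF (log2 change -2.19, limma adjusted p = 0.0402). In EYFP-ZF 2 passed, where 48 did (0.305%). Between JMJ14-ZF and ELF7-ZF 0 passed (26 regions, 0.165%), and between the change in JMJ14-ZF and that in EYFP-ZF 1 passed (49 regions, 0.311%). At an unadjusted p under 0.05 the members counted 23, 23, 30, 20 and 27 in these 5 comparisons (2.02%, 1.54%, 3.08%, 1.87% and 2.77% of all regions). Of the 23 in JMJ14-ZF 22 were narrower, and of the 23 in ELF7-ZF 19 were. At an unadjusted p the direction was not counted over all regions. At an adjusted p of 0.05, 9 of the 11 regions in JMJ14-ZF and 8 of the 8 in ELF7-ZF were narrower. The counts of narrower members, here and with the block, thus do not set them apart from other regions. With the replicate block, 70 members had an unadjusted p under 0.05 in JMJ14-ZF (61 narrower, 7% against 5.42% of all regions) and 99 in ELF7-ZF (78 narrower, 9.9% against 4.7%). In the other 3 comparisons the block gave 62, 76 and 84 (6.2%, 7.6% and 8.4%, against 7.49%, 5.23% and 7.76% of all regions). Without the 3 lists of SET2, 0 members passed in any of the 5 comparisons, and 170, 156, 112, 173 and 188 had an unadjusted p under 0.05, where 12.7%, 10%, 7.87%, 13.7% and 13.9% of all regions did. That fit held 1 list each of JMJ14-ZF, ELF7-ZF and their fwa and assumed that these vary like the EYFP-ZF pair.

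Both called members depended on the fwa lists of SET14. With the list that chose the members left out, fwa of SET14 was 1 list in the fit, assumed to vary like the other groups. The first, in EYFP-ZF and in the comparison with JMJ14-ZF, was a plastid region of 2087 bp at position 56931 to 59017, with 8038 and 7837 bp in EYFP-ZF and 76381 bp in fwa replicate 2, and 0 in SET1 and SET2 (log2 change -3.25 ± 0.14 (SE), limma adjusted p = 0.00153). The other was the region of TIFY8 at chr4:15717173-15718938, a gene of the TIFY family, with 1646 and 1531 bp in EYFP-ZF and 858 bp in fwa replicate 2 (log2 change 0.82 ± 0.08 (SE), limma adjusted p = 0.0428). Replicate 1 of fwa, which chose the region and was not in the fit, measured 1766 bp, above both EYFP-ZF lists. With replicate 1 in the fit, 0 members passed in EYFP-ZF.

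**Figure D5:**
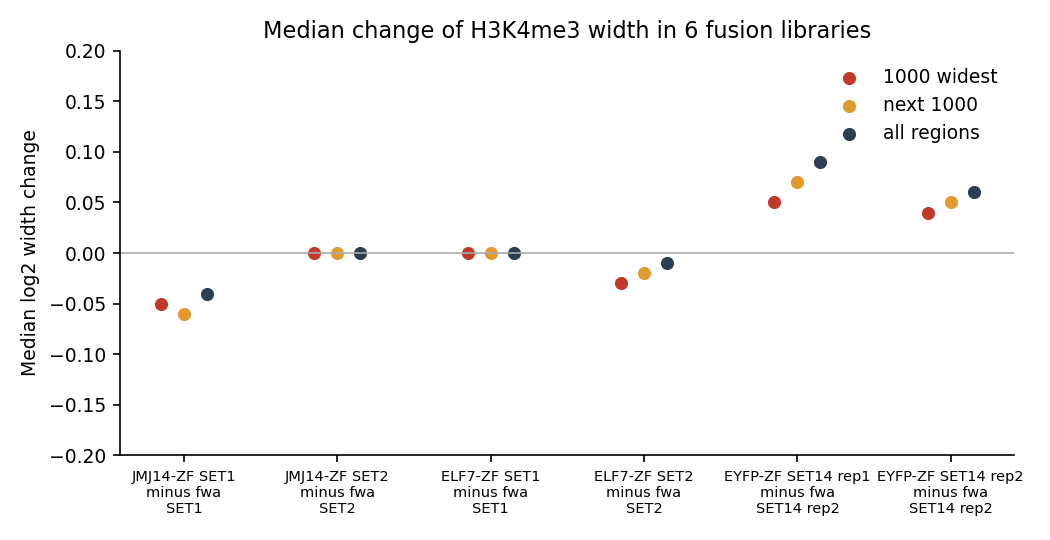
Median log2 change of width plus 100 bp in each fusion list against the fwa list of its data set (fwa replicate 2 for EYFP-ZF), for the 1000 widest regions, the next 1000 and all 15761. The members are at -0.05 and 0.00 in JMJ14-ZF, 0.00 and -0.03 in ELF7-ZF and 0.05 and 0.04 in EYFP-ZF.

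Over all members the change was small in each line. The median log2 change was -0.05 in JMJ14-ZF of SET1 and 0.00 in that of SET2, 0.00 and -0.03 in ELF7-ZF, and 0.05 and 0.04 in EYFP-ZF. All regions gave -0.04, 0.00, 0.00, -0.01, 0.09 and 0.06 in the same order. The mean over the 2 lists of a line was -0.023 ± 0.033 (SD) in JMJ14-ZF, -0.011 ± 0.020 in ELF7-ZF and 0.042 ± 0.009 in EYFP-ZF. The 2 EYFP-ZF values share 1 fwa list, so their SD holds no spread between controls. The EYFP-ZF mean turned to -0.046 once each list was centred on its own median. With fwa replicate 1, whose widths chose the members, also in the limma fit, the median EYFP-ZF change of the members was -0.001. In JMJ14-ZF of SET1, 651 members (65.1%) were narrower than in fwa, against 60.1% of all regions. In that of SET2, 48.6% were against 44.1%. The 142 members over a ZF site had a median of -0.09 and -0.01 in JMJ14-ZF, and the 858 others -0.04 and 0.00, while the 1621 other regions over a ZF site had -0.11 and -0.03. The 743 members under ELF7-FLAG peaks of both lists had 0.01 and -0.03 in ELF7-ZF.

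The members with the largest changes in the same direction in both data sets did not pass, with or without the replicate block. In JMJ14-ZF 453 of 983 nuclear members changed the same way in both data sets, 304 of them narrower, and in ELF7-ZF 513 did, 300 of them narrower. The same count was not made over all regions, so these counts do not set the members apart from other regions. LHY had a log2 change of -1.94 and -2.64 in SET1 and SET2 in both lines, from 283 and 523 bp in fwa to 0 (unadjusted p = 0.000227 by limma in each, adjusted p = 0.128 in JMJ14-ZF and 0.239 in ELF7-ZF, and 0.092 and 0.161 with the block). These 2 comparisons share their fwa lists. STH (a B-box protein gene) with AT2G31390 measured 252 and 516 bp in fwa, 0 in both JMJ14-ZF lists and 333 and 349 bp in ELF7-ZF (JMJ14-ZF log2 change -1.82 and -2.62, limma adjusted p = 0.163). COL1 (a CONSTANS-like gene) measured 1066 and 1132 bp in fwa, 492 and 0 bp in JMJ14-ZF and 744 and 401 bp in ELF7-ZF. ECT8 had 1011 and 187 bp in fwa and 0 in JMJ14-ZF. G3Pp1 had 489 and 843 bp in fwa and 0 and 290 bp in ELF7-ZF, and HFR1 (a light signalling factor) 2006 and 845 bp in fwa and 1344 and 0 bp in ELF7-ZF.

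On the wider side, several values rested on fwa of SET2, where a peak was missing or short. WAK1 (a wall-associated kinase) measured 2496 and 0 bp in fwa of SET1 and SET2, 2507 and 1554 bp in JMJ14-ZF and 2370 and 787 bp in ELF7-ZF. PIF5 measured 1876 and 0 bp in fwa and 1911 and 1062 bp in ELF7-ZF. CDF3 (a DOF repressor) had 1655 and 381 bp in fwa and 1774 and 1189 bp in ELF7-ZF. In these 3 regions the difference lay in SET2. It lay in SET1 for AT5G03380 (745 bp in fwa and 1493 bp in JMJ14-ZF) and AT5G54130 (307 bp in fwa and 1075 bp in ELF7-ZF). AT5G53500 was wider in both data sets, with 1003 and 1287 bp in fwa and 1461 and 1646 bp in JMJ14-ZF, and did not pass (unadjusted p = 0.0286, limma adjusted p = 1.0).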

How the data were processed

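The deposited ChIP-seq peak lists were made by the authors per library: reads were trimmed with trim_galore, aligned to TAIR10 with Bowtie2 2.1.0, cleared of duplicates with SAMtools 1.9 and searched for peaks with MACS2 2.1.1 (versions from the submitters' processing notes). The control used in calling histone and Pol II peaks is not given in the sources used here. Each deposited list gives peak positions, a fold enrichment over background (a ratio) and −log10 q values from the authors' caller, and no counts.

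From these, unique regions (chromosome, start and end) were taken, and overlap counted from 1 bp. A region's width in a list was the summed width of the peaks that overlap it. Widths were compared with limma 3.58.1 in R 4.3.3 on log2(width + 100 bp), group means with no block, p-values adjusted by Benjamini-Hochberg over 15761 regions. Coverage of other marks was compared by the exact sign-flip permutation test over lists, adjusted over 8 marks. The limma step was run on simulated widths with independent spread between lists, without a data set effect. The sign-flip test was checked on small fixed cases of known p. The data sets SET1 and SET2 pair the lists according to the labels, and deviations from group means correlated at 0.848, 0.845 and 0.884 over the 1000 members. The replicate block changed the ELF7-ZF count from 0 to 1.

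Gene positions came from RefSeq (TAIR10.1), whose bases equalled 210 of 210 cytosine contexts in the deposited amplicon files. Named genes were those starting in the 20 widest members, in the 5 most narrowed and 5 most widened members that changed the same way in both data sets for JMJ14-ZF and ELF7-ZF, list genes starting in a member, and FWA. Others named were chosen after their values were seen. The members and lists were chosen with earlier results of these data known. Lists of the other fusion lines, RNA-seq and amplicon methylation were not used here. Alternatives were the pseudocount, bases covered, centring, a −log10 q of at least 10, other member counts, other overlaps and leaving out each list.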

Additional observations from a re-analysis of the deposited data

Results flagged for a closer look

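The H4K16ac difference between members and other regions was 5.06 percentage points in the list of SET3-6 replicate 2 and 10.6 to 12.3 points in the other 4 lists, far from them by Dixon's test. Among 12 groups of lists examined 1 such list was found, and chance gives about 1 in 20. The cause was not tested.

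The plastid region at position 56931 to 59017 differed between the change in JMJ14-ZF and that in EYFP-ZF by a log2 value of 3.25 ± 0.18 (SE, limma adjusted p = 0.00529). It measured 0 bp in the 6 lists of SET1 and SET2, so the difference comes from the SET14 lists. The cause was not tested.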

How the results depend on the processing

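Of 248 alternatives, 68 of 109 counts of called members stayed within 1.5 times, 33 of 36 medians moved by less than the spread between lists, and 95 of 103 coverage differences kept their sign. With peaks of −log10 q of at least 10 the counts were 1 in JMJ14-ZF, 2 in ELF7-ZF, 8 in EYFP-ZF, 1 between JMJ14-ZF and ELF7-ZF and 7 between JMJ14-ZF and EYFP-ZF. The data set as replicate block gave 1 in ELF7-ZF and changed no other count of calls at an adjusted p of 0.05. A pseudocount of 500 bp gave 5 in EYFP-ZF and 2 against JMJ14-ZF, and the 2000 widest gave 2 against JMJ14-ZF. Bases covered, centred lists, nuclear regions alone and the 1000 widest nuclear regions each gave 1 in EYFP-ZF and 0 against JMJ14-ZF. The 500 widest and a replicate 2 cover of 50% each gave 1 in EYFP-ZF, and fwa replicate 1 included gave 0. Regions with a peak in every list, and the lists without SET2, gave 0 in both. The alternatives on nuclear regions and on leaving out SET2 or SET3-6 replicate 2 were chosen after seeing the data, as were all values without the lists that hold peaks over floral genes.

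The EYFP-ZF median was 0.029 with bases covered, -0.046 centred and 0.051 over the 2000 widest. By any overlap from 1 bp, the differences turned to 0.394 points in H3K14ac and 0.21 in H3K27ac and 6.55 in H3K36me3. At the midpoint, H3K9ac turned to -14.0 and H4K16ac to -12.8. H3K9ac was -2.98 against the next 1000 and -0.986 in the 500 widest. The causes were not tested. Leaving out each list gave counts from 0 to 2 in JMJ14-ZF, 0 to 3 in ELF7-ZF, 1 to 8 in EYFP-ZF, 0 between JMJ14-ZF and ELF7-ZF and 0 to 6 between JMJ14-ZF and EYFP-ZF. The highest came without fwa of SET2 (2 and 3) and without EYFP-ZF replicate 1 (8 and 6). H3K36me3 ran from -7.42 to 1.68. Peak lists without read counts limit how far a missing peak can be told from a shallow library.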

Other observations

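The clock genes outside the members showed the gap between data sets in both directions. CCA1, the partner of LHY, ranked 1580 and measured 1398 to 1537 bp in the 4 lists of SET14 and 0 to 362 bp in the 6 lists of SET1 and SET2. PRR5, at rank 14339, measured 300 to 625 bp in SET14 and 1001 to 2451 bp in SET1 and SET2. LUX (PCL1) measured 917 to 1005 bp in SET14 and 1143 to 1530 bp elsewhere, and TOC1 622 to 717 bp against 771 to 1078 bp. PRR7 measured 811 to 906 bp against 454 to 733 bp and ZTL 968 to 1052 bp against 709 to 833 bp. Of the 10 clock genes with a region, only GI and ELF3 overlapped between SET14 and the other data sets, and ELF3 measured 643 to 755 bp against 584 to 838 bp.

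Antenna genes of the LHCB1 family differed in SET2. CAB2, CAB3 and LHB1B1 had no peak in the 3 lists of SET2 and measured 826, 567 and 819 bp in fwa of SET1. CAB1 measured 1127 bp in fwa of SET1 and 1043, 1045 and 1032 bp in fwa, JMJ14-ZF and ELF7-ZF of SET2, and LHB1B2 measured 1542 bp in fwa of SET1 and 277, 986 and 1268 bp in the same lists of SET2.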
